A study of Mus musculus with 12 samples.

Results

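The methylation of 9 genes of the oligodendrocyte lineage was examined: the transcription factor genes Olig1, Olig2, Sox10 and Myrf, and the myelin protein genes Mbp, Mobp, Mag, Mog and Cnp. A member site was a cytosine of a CpG within the body of one of these genes or in the 2000 bp upstream of it (GENCODE vM21 basic annotation, mm10), with at least 10 reads in at least 6 of the 12 libraries. In all, 912 sites met this rule, which is 0.0423% of the 2156659 sites so covered in the whole data set, and 393 of them were covered in all 12 libraries. The 2 strands of a CpG were listed as separate sites. At the edge of the rule, 58 sites were covered in exactly 6 libraries, with a median methylation level of 9.79%, and 51 further sites were covered in exactly 5, with a median of 13.3%.

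In mm10, Olig1 (ENSMUSG00000046160.6) lies on chromosome 16 from 91269772 to 91271933, Olig2 (ENSMUSG00000039830.9) lies on chromosome 16 from 91225457 to 91228677, Sox10 (ENSMUSG00000033006.10) lies on chromosome 15 from 79154908 to 79165240, Myrf (ENSMUSG00000036098.15) lies on chromosome 19 from 10208272 to 10240748. The myelin genes are Mobp (ENSMUSG00000032517.16) on chromosome 9 from 120149707 to 120181484, Mag (ENSMUSG00000036634.15) on chromosome 7 from 30899176 to 30914873, Mog (ENSMUSG00000076439.12) on chromosome 17 from 37010743 to 37023398, Cnp (ENSMUSG00000006782.16) on chromosome 11 from 100574904 to 100591729 and Mbp (ENSMUSG00000041607.17). Sox10, Myrf, Mag and Mog are on the minus strand.

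The animals were 4 wild-type (Wt) mice and 8 Tg2576 (Tg) mice, labelled as 11 months old. Tg2576 mice carry a transgene for human amyloid precursor protein with the Swedish mutation of familial Alzheimer's disease, driven by a prion promoter, and the line accumulates amyloid-beta with age. The Wt group had 3 animals labelled female and 1 labelled male, and the Tg group had 4 of each. DNA came from a dissection that mixed hippocampus and cortex, and its methylation was read by RRBS (reduced representation bisulfite sequencing), in which MspI fragments ending in CCGG are bisulfite converted and read.

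The coverage of a library, summed over its listed sites, was 33619981 to 131446104, which counts a read at each site it covered. The library labelled Wt male had a mean X-chromosome level of 19.9%, beside 20.7% to 23.0% in the 7 libraries labelled female and 5.50% to 5.67% in the Tg males, so it went against its sex label. The Olig1, Mag and Cnp differences, in which it was among the highest Wt libraries, are given with and without it. The counts were mostly even numbers: 73.7% of coverage values at sites covered in all 12 libraries, and 71.5% at the member sites, were multiples of 2. The cause was not tested, and calls are also given with all counts divided by 2.

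Oligodendrocytes wrap axons of the central nervous system in myelin. Olig2 and Olig1 are basic helix-loop-helix factors that specify the lineage, Sox10 keeps it, and Myrf switches on the myelin genes as the cells mature. Mbp encodes myelin basic protein, which compacts the sheath. Mag and Mog encode surface glycoproteins of the inner and the outermost myelin, Cnp a phosphodiesterase of the cytoplasmic channels, and Mobp a small basic protein of the sheath. In the brain most CpGs are methylated, while CpG islands at gene starts usually are not. The tissue held all brain cell types, so a level of methylation in a part of the cells and partial methylation in every cell cannot be told apart.

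The 4 stretches that the results turn on are shown as they read in the reference (GRCm38, the assembly of mm10), on the strand of the gene and with the CpGs covered in at least 6 libraries in capitals. All 912 member sites were cytosines of a CpG in that assembly. The Olig1 stretch is the coding fragment that held the Olig1 calls, the Sox10 stretch lies upstream of the gene, the Mag stretch is the partly methylated sequence just before its start, and the Cnp stretch is the coding fragment with the larger of the called cluster differences.
Olig1, chr16:91270122-91270276, plus strand, starting 350 bases after the gene start: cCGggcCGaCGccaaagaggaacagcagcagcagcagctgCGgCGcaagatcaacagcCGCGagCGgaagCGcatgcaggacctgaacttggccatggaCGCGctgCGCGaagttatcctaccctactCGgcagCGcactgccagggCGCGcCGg
Sox10, chr15:79166055-79166180, minus strand, 940 to 815 bases before the gene start: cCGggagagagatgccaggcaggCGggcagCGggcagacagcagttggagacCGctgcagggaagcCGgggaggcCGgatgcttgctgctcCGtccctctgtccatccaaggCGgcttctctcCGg
Mag, chr7:30914926-30914972, minus strand, 99 to 53 bases before the gene start: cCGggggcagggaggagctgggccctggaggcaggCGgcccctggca
Cnp, chr11:100580634-100580760, plus strand, bases 5730 to 5856 after the gene start: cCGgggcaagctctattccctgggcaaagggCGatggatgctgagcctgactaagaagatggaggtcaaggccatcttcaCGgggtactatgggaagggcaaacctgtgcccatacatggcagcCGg
The Olig1 fragment held 18 CpGs in 155 bases, all of them covered, whereas the Cnp fragment held 4 in 127 bases.

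The genes differed in how their starts were methylated. Within 1000 bp of the gene start the mean level over sites was 1.19% in Olig1 (160 sites), 1.91% in Olig2 (32 sites), 0.929% in Myrf (20 sites), 3.11% in Mbp (79 sites) and 0.796% in Cnp (49 sites). By contrast it was 35.5% in Sox10 (15 sites) and 42.8% in Mag (9 sites). Sox10 has another annotated start 750 bp further in, and the 84 Sox10 sites within 1000 bp of either start had a median of 2.26%. Mog had only 2 sites there, with a mean of 39.1%, and Mobp had none. Over the 13572 autosomal protein-coding genes with at least 3 such sites the median was 0.967%, and 84.9% of them lay under 5%, as did 5 of the 7 members with at least 3 sites.

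CpG content separated the same members. In the 1000 bases centred on the gene start, the ratio of observed to expected CpGs was 0.811 in Olig1, 0.755 in Olig2, 0.730 in Myrf, 0.6001 in Mbp and 0.590 in Cnp. It was 0.320 in Mobp, 0.166 in Sox10, 0.162 in Mag and 0.147 in Mog. Among all genes with at least 3 sites, the median start level was 0.844% where the ratio was at least 0.6 and 3.04%, with an upper quartile of 26.3%, where it was lower. The upper quartile of the former was 1.21%. Olig2, Mbp, Sox10 and Mag lay above the upper quartile of their class, and Olig1, Myrf and Cnp did not.

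**Figure D1:**
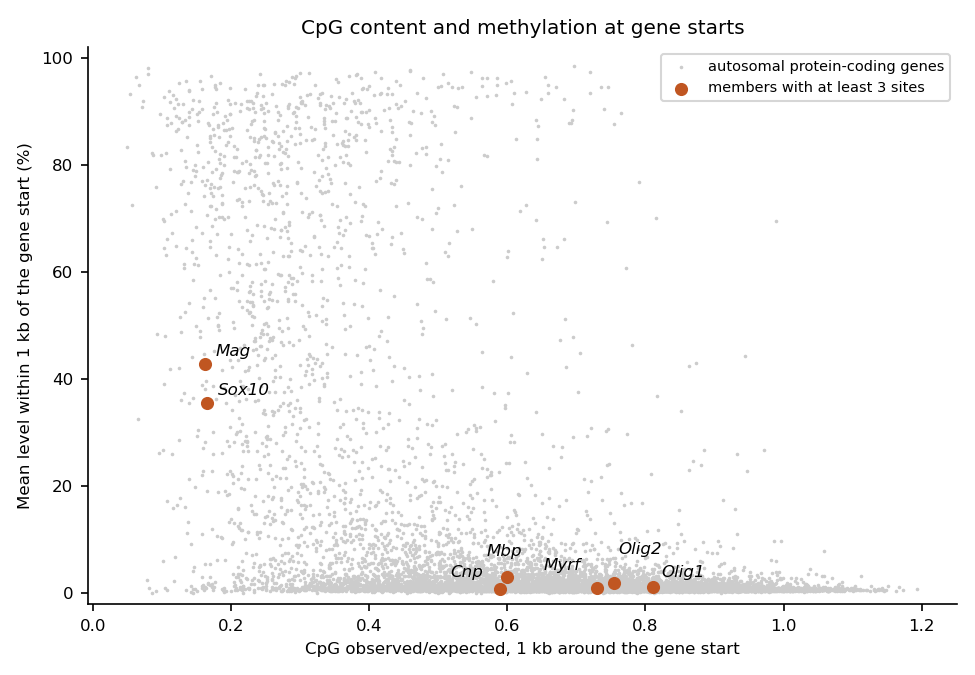
Each point is a gene: the horizontal axis is the observed-to-expected CpG ratio in 1 kb around the gene start and the vertical axis the mean methylation level (%) of sites within 1 kb of it, over all animals. Olig1, Olig2, Myrf, Mbp and Cnp lie at the bottom with ratios of 0.590 to 0.811, and Sox10 (35.5%) and Mag (42.8%) lie higher with ratios of 0.166 and 0.162.

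Olig1 and Olig2 were low throughout. Olig1 has a single coding exon, and its 129 coding sites had a median pooled level of 0.693% and a maximum of 7.23%. Its only stretch with higher values was 7 upstream sites at positions -1329 to -1084 from the gene start, at 31.8% in pooled reads. The 133 coding sites of Olig2 had a median of 1.38% and a maximum of 7.43%, and its highest site, at 15.9%, lay among the upstream sites. The median level of the 381 coding sites of all members was 1.72%, most of which belonged to Olig1 and Olig2, beside 19.9% for the 261 intron sites.

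Sox10 carried both states. Between 1398 and 1661 bp after the gene start, 60 sites in UTR, coding and intron sequence had a pooled level of 1.88%, and the nearest of them lay 648 bp after the second start. The stretch printed above held 14 sites at 38.02%, and its outermost sites, both in CCGG, were the lowest of it at 13.0% and 26.9%. Of its inner sites, those on the minus strand at positions -917 to -828 had 39.5% to 47.8%. Another 16 coding sites 5889 to 6052 bp after the start had 24.55%. A total of 14 Sox10 sites also lay in the overlapping gene Gm10863, so they cannot be assigned to one gene.

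Myrf and Mbp rose from low starts to high levels in the body. In Myrf, 20 sites from 14 bp before to 117 bp after the start had a pooled level of 0.913%, while 9 intron sites 27773 to 27899 bp into the gene had 55.55%, and a coding site 22592 bp in had 98.5%. Mbp spans the long Golli form, which starts at the gene start, and the classic myelin form, whose annotated starts lie 79324 to 79434 bp further in. At the Golli start, 79 sites had a pooled level of 2.58%. At the starts of the classic form, 6 sites 79333 to 79419 bp in had 42.35%, and the introns of Mbp ranged from 0% to 99.0%.

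Mag and Mog had no low site near their starts among the few covered, and the gene start of Mobp was not covered. The 9 Mag sites from 98 bp before to 109 bp after its start ranged from 22.1% to 68.7%, and its coding exon 13018 to 13135 bp in was at 81.7% over 14 sites. Within Mag, 6 sites 5549 to 5671 bp in were at 12.2%, so the body was not uniformly methylated. In Mog, the pair of sites in the first exon were at 36.9% and 41.2%, and the 12 coding sites at 43.3% to 63.8%. The 6 Mobp sites within 1000 bp of its internal start, 3338 bp in, had 45.6% to 62.7%. All Mobp sites ranged from 37.4% to 93.1%, and 11 of the 23 also lay in the overlapping gene Gm38642. Cnp went from 0.773% over 49 sites at its start to 29.1% over 8 intron sites 1167 to 1299 bp in, 39.1% over 20 coding sites 1530 to 1788 bp in, and 49.15% over the 6 sites of the printed fragment.

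**Figure D2:**
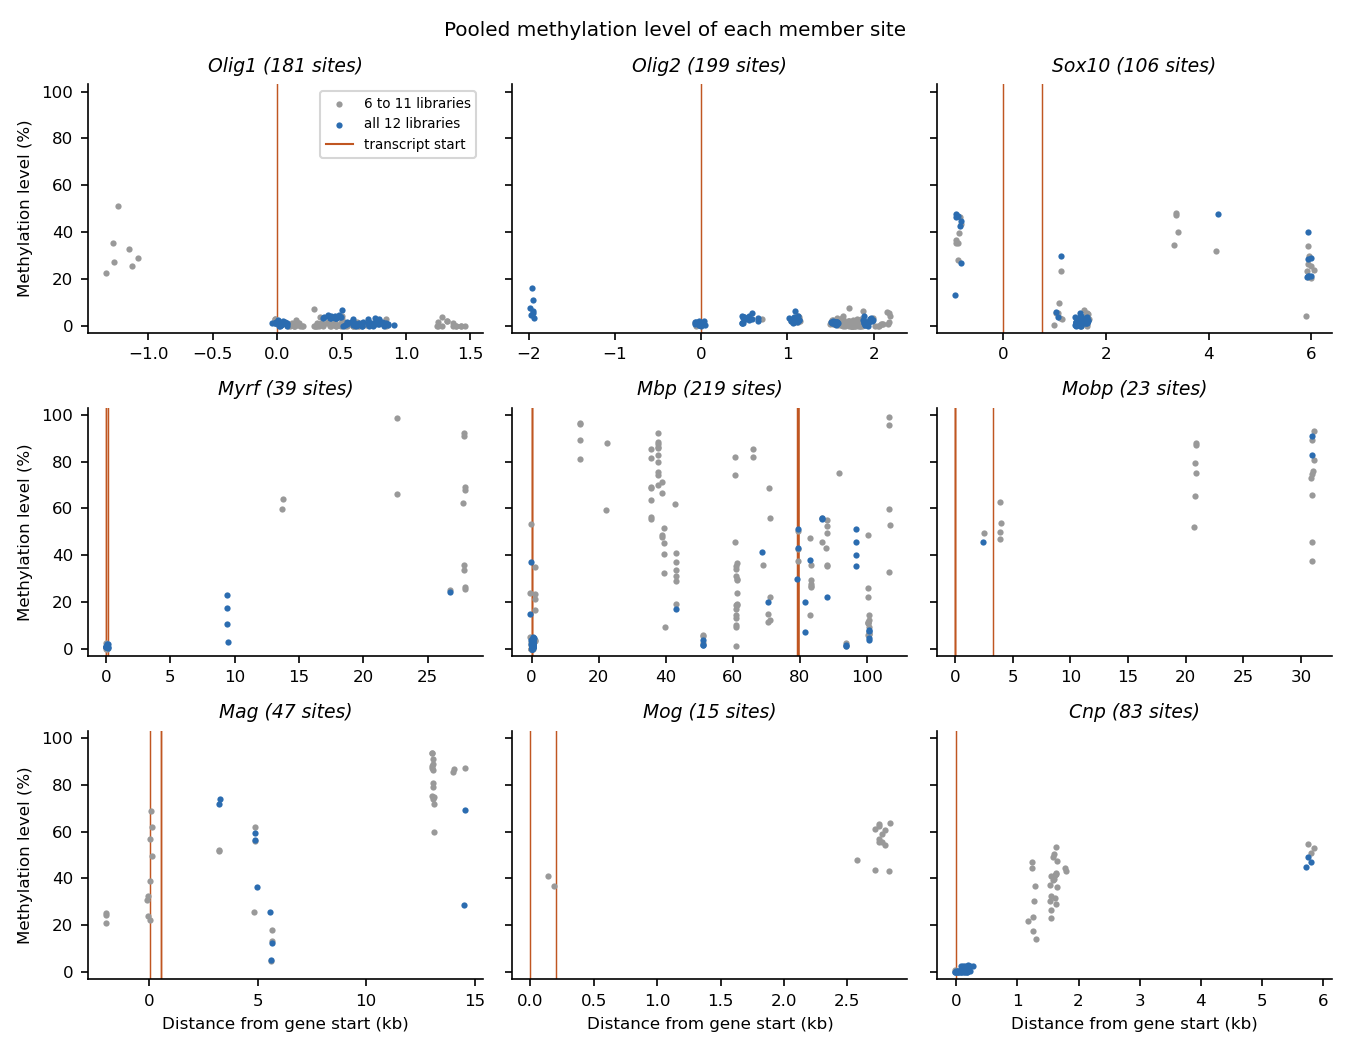
Each panel is a gene, with the distance from its start in kb on the horizontal axis and the methylation level (%) pooled over all reads on the vertical axis; points are member sites, blue where all 12 libraries covered the site, and vertical lines are annotated transcript starts. Olig1 and Olig2 stay near 0 after the start, whereas the covered sites nearest the starts of Mag and Mog lie at 22.1% or more and Mbp is at 42.35% at its internal starts.

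For 347 CpGs both strands were covered, and in 322 of them the pooled levels differed by less than 10 percentage points. All 72 such CpGs of Olig1 and all 88 of Olig2 were among these, where levels near 0 leave little room for a gap. In the more methylated genes the count was 11 of 15 in Mag, 4 of 6 in Mobp, 4 of 6 in Mog and 64 of 73 in Mbp. The largest gaps were in Mbp, from 34.1 points lower to 23.6 points higher on the minus strand.

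For each site, Tg was compared with Wt by a pair of models. The binomial one, a logistic regression on genotype and labelled sex, takes all reads as independent. The overdispersion one scales the error by a dispersion, the spread of animals around the fitted values, never below 1, and uses an F test. Only 1 Wt animal was labelled male, so the sex term can take up part of its level, which then adds little to the dispersion. Group values are given as mean ± SD over animals (n = 4 for Wt and n = 8 for Tg, unless a library without coverage is named). A site was called where the p-value adjusted over all sites of the data set (Benjamini-Hochberg) was under 0.1 and the read-weighted levels of Tg and Wt differed by at least 10 points. Under the binomial model, 19 of the 393 member sites were called (4.83%), beside 1.72% of all 980547 sites, 7 of them higher in Tg and 12 lower. The background was 0.928% called higher and 0.794% called lower. It included 9772 sites on the X chromosome, where no member lies. Sites at intermediate levels are called more often, and among sites with a pooled level of 10% to 90% the shares were 15 of 53 members (28.3%) and 17.5% of all. The calls fell in Sox10 (6), Mbp (4), Olig1 (3), Cnp (3), Mag (2) and Mobp (1), with none in Olig2 and Myrf, while Mog had no site covered in all 12.

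Under the overdispersion model, 0 of the 393 were called, as were 0% of all sites, and the smallest adjusted p of a member was 0.422. At an unadjusted p under 0.05 by that model there were 69 member sites (17.6%), beside 10.9% of all sites. Of the 69, 34 were among the 91 Olig1 sites. Neighbouring sites of a fragment share reads, so such sites are not independent. With counts divided by 2, the binomial model called 3 member sites, all in Olig1, beside 0.137% of all sites. On the wider set covered in at least 6 libraries it called 57 of 912 (6.25%), 23 of them higher in Tg, beside 5.84% of all 2130565 sites that could be fitted, and the overdispersion model called 0. Of the 19 called sites, 16 had the other strand of the CpG covered in at least 6 libraries, and there the mean levels differed in the same direction at 10, in the opposite direction at 5 and not at all at 1.

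The Olig1 calls came from the coding fragment printed above and from its minus strand. At the cytosine 479 bp after the gene start (chromosome 16, position 91270251), which had the smallest p of all Olig1 sites, the level was 32.1% in the library labelled Wt male, 11.8% in Wt female 3 and 0% in the other 10 libraries. The read-weighted difference was -12.8 points (Tg minus Wt), with an adjusted p of 6.2e-13 in the binomial model and 0.422 in the overdispersion model. The dispersion at this site was only 1.11. With every Tg animal at 0%, the sex term fitted the library labelled Wt male alone. The overdispersion p there does not carry the full spread among Wt animals. Groups overlapped, because Wt females 1 and 2 were at 0% like every Tg animal. The other called sites, 450 and 500 bp in, had differences of -11.9 and -15.2 points, again with Wt females 1 and 2 at 0%.

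The raised level extended along the fragment in those libraries. On the minus strand the library labelled Wt male had 20.2% over 17 sites (181 of 898 counts summed over sites). Wt female 3 had 12.2% (132 of 1086 counts), while the other Wt animals and all Tg animals had 0% to 1.21%. These sums count a read at each site it covered, so they are not numbers of separate reads. Coverage at single sites was 28 to 56 reads for the library labelled Wt male and 34 to 68 for Wt female 3. The methylated count was 10 at 13 of the 17 sites in the former library and 8 at 16 of the 17 in the latter. Levels at single sites were 17.9% to 32.1% in the former and 11.8% to 21.05% in the latter. The site 479 bp in was at the top of the former range. On the plus strand of the same CpGs these libraries had 0.985% and 1.96%, all others had 0% to 1.22%, and Wt female 2 had no coverage. Elsewhere in Olig1, from the start region onward, each library stayed between 0% and 2.13% on either strand. Without the library labelled Wt male, the difference at the site 479 bp in was -5.41 points and it was not called.

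**Figure D3:**
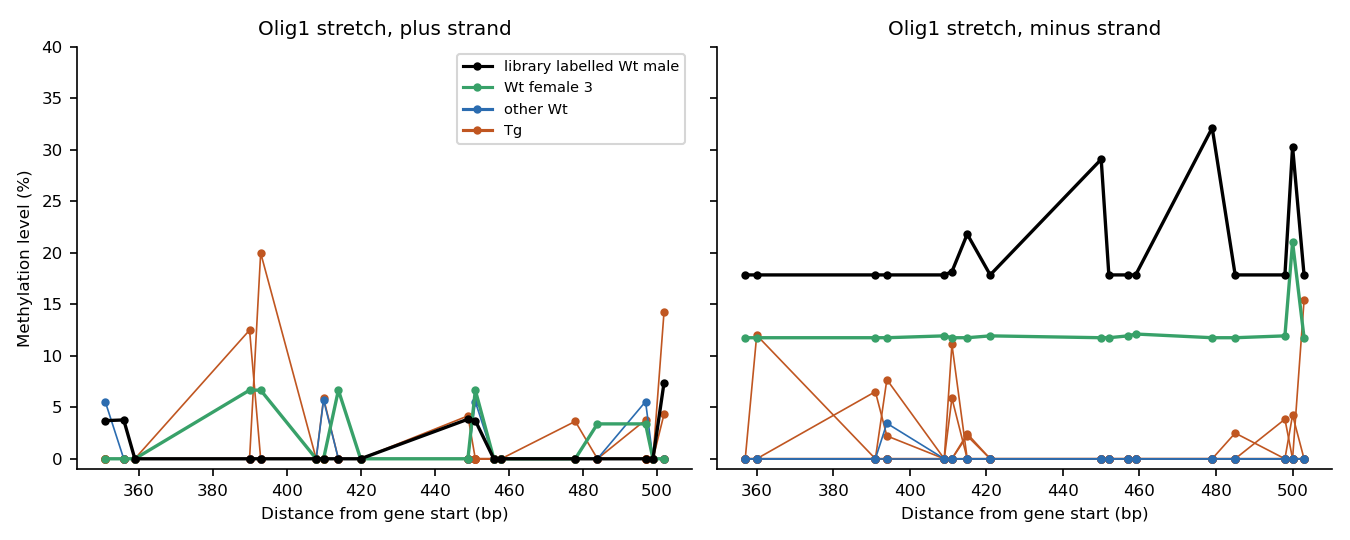
Methylation level (%) at each covered cytosine of the Olig1 coding fragment against its distance from the gene start in bp, for the plus strand (left) and the minus strand (right), with 1 line per animal. On the minus strand the library labelled Wt male and Wt female 3 run above all others, at 20.2% and 12.2% over the stretch, and on the plus strand at 0.985% and 1.96%.

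Over the whole of Olig1 (91 sites covered in all 12 libraries), the mean level was 1.28%, 0.652%, 3.03% and 4.95% in Wt females 1 to 3 and the library labelled Wt male, and 0.459% to 0.817% with a median of 0.516% in the 8 Tg animals. Only Wt female 2 lay within the Tg range. The means were 2.48% ± 1.93 in Wt and 0.577% ± 0.127 in Tg, a difference of -1.90 points with an exact two-sided permutation p of 0.00606 over all ways to draw 4 of 12 animals. Reads summed over the gene gave an adjusted p of 0.672 in the overdispersion model over all 18682 autosomal genes. Leaving out the library labelled Wt male gave -1.08 points (exact permutation p = 0.0182), and the 7 animals labelled female alone gave -1.08 points (exact permutation p = 0.0571). A minimum of 20 reads left -0.172 points (exact permutation p = 0.659).

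In Olig2 the groups were close, with 2.45% ± 0.307 in Wt and 2.17% ± 0.591 in Tg over 88 sites (exact permutation p = 0.422). Its site with the smallest overdispersion p, 1101 bp after the start in the coding exon, was at 0% in all 4 Wt animals and at 0% to 9.35% in Tg, where 5 of 8 animals were above 0. The coding cluster around it, 13 sites 1015 to 1133 bp in, had 1.36% ± 0.5999 in Wt and 3.61% ± 1.38 in Tg, with an overdispersion p of 0.00252 that was 0.725 after adjustment over all 34869 clusters. Built from sites in at least 6 libraries, the cluster had 26 sites, 1.85% ± 1.10 in Wt and 3.41% ± 2.77 in Tg, a difference of 1.32 points in place of 2.34 and an overdispersion p of 0.156. Non-overlapping ranges were found at 3 member sites (0.763%), all lower in Tg, beside 0.0709% of all sites, and 2 of these were in Olig2, 1530 and 1963 bp in. At the former the Wt animals had 2.53% to 6.25% and the Tg animals 0% to 2.02%, so that 7 of 8 were at 0%. The third was an intron site of Sox10, 1428 bp in, with 2.08% to 3.92% in Wt and 0% in every Tg animal. None of these 3 reached 10 points, and their overdispersion p-values adjusted over all sites were 0.422 to 0.451.

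Sox10 sites were called in both directions. The 3 sites called higher in Tg lay together 5914 to 5940 bp in, in a coding exon. Their cluster of 7 sites had 26.1%, 26.6%, 11.7% and 16.4% in Wt females 1 to 3 and the library labelled Wt male, and 15.5% to 62.9% with a median of 23.7% in Tg. The Tg mean was 30.8% ± 16.1, and the highest Tg animals were Tg male 1 (62.9%) and Tg female 1 (46.5%). The overdispersion p was 0.123 (0.873 adjusted over all clusters). The 3 sites called lower in Tg were single sites at position -848, 1116 bp in and 4177 bp in. At the last of these the Wt animals had 36.4% to 78.6% and the Tg animals 10% to 57.1%, with a difference of -21.1 points. The 7 upstream sites covered in all 12 libraries had 43.8% ± 12.7 in Wt and 37.4% ± 8.98 in Tg. The library labelled Wt male was at 61.7% there and the Wt females at 32.1% to 42.9%. The adjusted p of this cluster in the overdispersion model was 0.889. Over all 14 sites of the printed stretch, the means were 39.7% in Wt and 38.6% in Tg, a difference of -1.17 points in summed reads. At the called site of this stretch the other strand ran the opposite way, with 36.1% in Wt and 50.6% in Tg. The site of Sox10 with the smallest overdispersion p, 1642 bp in, was at 14.8%, 6.25%, 0% and 15.4% in Wt females 1 to 3 and the library labelled Wt male and at 0% in every Tg animal, and its difference of -9.01 points was under the limit.

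The 4 Mbp calls were all higher in Tg and stood apart from each other, 309 bp upstream and 42965, 70631 and 79333 bp in. At the site 70631 bp in, in an intron, Wt animals had 0% to 15.4% and Tg animals 0% to 53.3%, with a difference of 20 points and an overdispersion p of 0.0447 (0.453 adjusted). The other strand of this CpG ran the opposite way, with 22.5% in Wt and 9.38% in Tg. The site 79333 bp in lies at the starts of the classic form, and its cluster of 3 sites had 43.1% ± 15.9 in Wt and 43.9% ± 18.6 in Tg. Wt animals ranged there from 23.3% to 61.9% and Tg animals from 18.3% to 66.7%, so the groups covered the same range. Over its 74 sites the gene had 9.83% ± 0.599 in Wt and 10.1% ± 1.56 in Tg (exact permutation p = 0.717). Of the wider clusters built from sites in at least 6 libraries, 3 of Mbp were called higher in Tg by the binomial model, with differences of 10.3, 12.2 and 10.4 points in introns 35606 to 43073 bp in, and none by the overdispersion model, where their p-values were 0.451, 0.329 and 0.137. These differences weight animals by reads. At the first of these clusters, not covered in Tg male 2, the means over animals were 67.7% in Wt and 68.3% in Tg. The background of such clusters was 6.96% called by the binomial model.

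Mag and Cnp held the 2 called clusters among the 24 of the members, beside 2.92% of all 34869 clusters, and both were lower in Tg. The overdispersion model called 0 of them, and 3 had an unadjusted p under 0.05 (in Olig1, Olig2 and Myrf), beside 5.82% of all clusters. The Mag cluster, 3 intron sites 4856 to 4965 bp in, had 40.7%, 40%, 71.6% and 67.9% in Wt females 1 to 3 and the library labelled Wt male, and 28.6% to 62.5% with a median of 45.6% in Tg. Only the last pair of Wt animals lay above the Tg range. The difference in summed reads was -15.9 points, with an adjusted p of 5.1e-05 in the binomial model and an overdispersion p of 0.0834 (0.864 adjusted). Without the library labelled Wt male the difference was -11.7 points and the cluster was not called. Built from sites in at least 6 libraries, the cluster had 6 sites and a difference of -18.8 points. Its overdispersion p was then 0.0190 (0.938 adjusted). The other strand at the called Mag sites ran the same way, at 80.7% in Wt and 51.9% in Tg, and at 72.6% and 48.25%.

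The Cnp cluster is made of the 3 called sites, which lie in the printed coding fragment. It had 72.7%, 17.1%, 55.3% and 77.2% in Wt females 1 to 3 and the library labelled Wt male, and 19.3% to 70.7% with a median of 32.5% in Tg. Both groups spread widely, and Wt female 2 was the lowest of all 12. The difference was -27.9 points in summed reads, with an adjusted p of 8.0e-12 in the binomial model and an overdispersion p of 0.0537 (0.853 adjusted). Without the library labelled Wt male the difference was -17.4 points, and the cluster was still called by the binomial model. Over all 6 sites of the printed fragment the difference was -15.75 points, with an overdispersion p of 0.109, and the Tg median was 42.35%. The called sites were on the plus strand, 5731, 5761 and 5810 bp in. On the minus strand at the site 5761 bp in, the mean was 57.95% in Wt and 54.2% in Tg. At the site 5810 bp in it ran the opposite way, with 35.2% in Wt and 53.2% in Tg. At the start of Cnp, 47 sites had 0.553% ± 0.268 in Wt and 0.885% ± 0.379 in Tg.

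**Figure D4:**
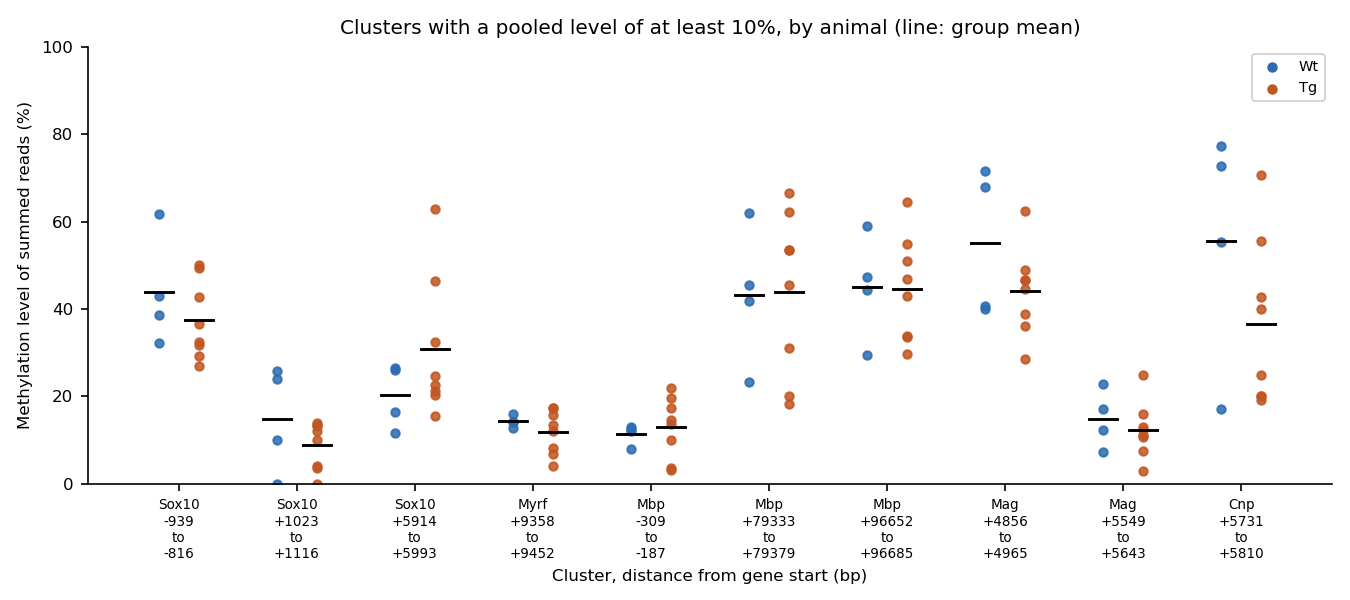
Methylation level (%) of summed reads for the 10 member clusters with a pooled level of at least 10%, with 1 point per animal, Wt in blue and Tg in orange, lines at the group means, and distances from the gene start in bp along the horizontal axis. The Wt and Tg points overlap in every cluster, including the called ones in Mag (40% to 71.6% in Wt, 28.6% to 62.5% in Tg) and Cnp (17.1% to 77.2% in Wt, 19.3% to 70.7% in Tg).

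Mag as a gene had 48.5% ± 3.62 in Wt and 41.6% ± 4.64 in Tg over 10 sites. The Wt animals lay at 43.5% to 51.3% and the Tg animals at 35.3% to 49.4%, so the ranges overlapped, and the difference was -6.91 points (exact permutation p = 0.0364). This p is 1 of 8 computed. It was 0.0788 when the library labelled Wt male or Wt female 3 was left out. The 7 animals labelled female gave -3.06 points (exact permutation p = 0.343), and a minimum of 20 reads turned the difference to 1.73 points (exact permutation p = 0.814). Summed reads gave an adjusted p of 0.889 in the overdispersion model over all genes. At the Mag start, the 9 sites covered in at least 6 libraries had a mean of 54.3% in Wt and 42.6% in Tg. Wt female 2 did not cover them, and the overdispersion p was 0.182.

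Mobp and Mog could be compared only thinly. The only Mobp call, 30908 bp in, was at 100% in all 4 Wt animals and in 5 of the Tg animals, and at 77.8%, 66.7% and 57.1% in Tg male 1, Tg female 4 and Tg male 2. Its difference of -14.2 points had an overdispersion p of 0.184 (0.564 adjusted). Over the 3 sites of Mobp the means were 77.3% ± 5.29 in Wt and 70.5% ± 12.1 in Tg (exact permutation p = 0.327). Wt female 2 did not cover the 13 Mog sites 2578 to 2833 bp in. In Mog these sites had 56.4% in Wt and 54.6% in Tg, with an overdispersion p of 0.840. Its 1 called site in the wider set, 2716 bp in, was at 33.3% to 84.0% in 3 Wt animals and at 0% to 54.3% in 5 Tg animals, and the other libraries did not cover it. Its adjusted p in the overdispersion model was 0.656.

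Myrf showed no call in all 12 libraries, with 5.73% ± 1.14 in Wt and 5.45% ± 2.10 in Tg over 15 sites (exact permutation p = 0.808). Its start, 10 sites, had 0.655% ± 0.764 in Wt and 1.10% ± 1.28 in Tg. The remaining genes gave exact permutation p-values of 0.469 (Sox10, 10.8% ± 1.90 against 9.92% ± 1.93) and 0.364 (Cnp, 3.90% ± 1.90 against 2.99% ± 1.38).

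**Figure D5:**
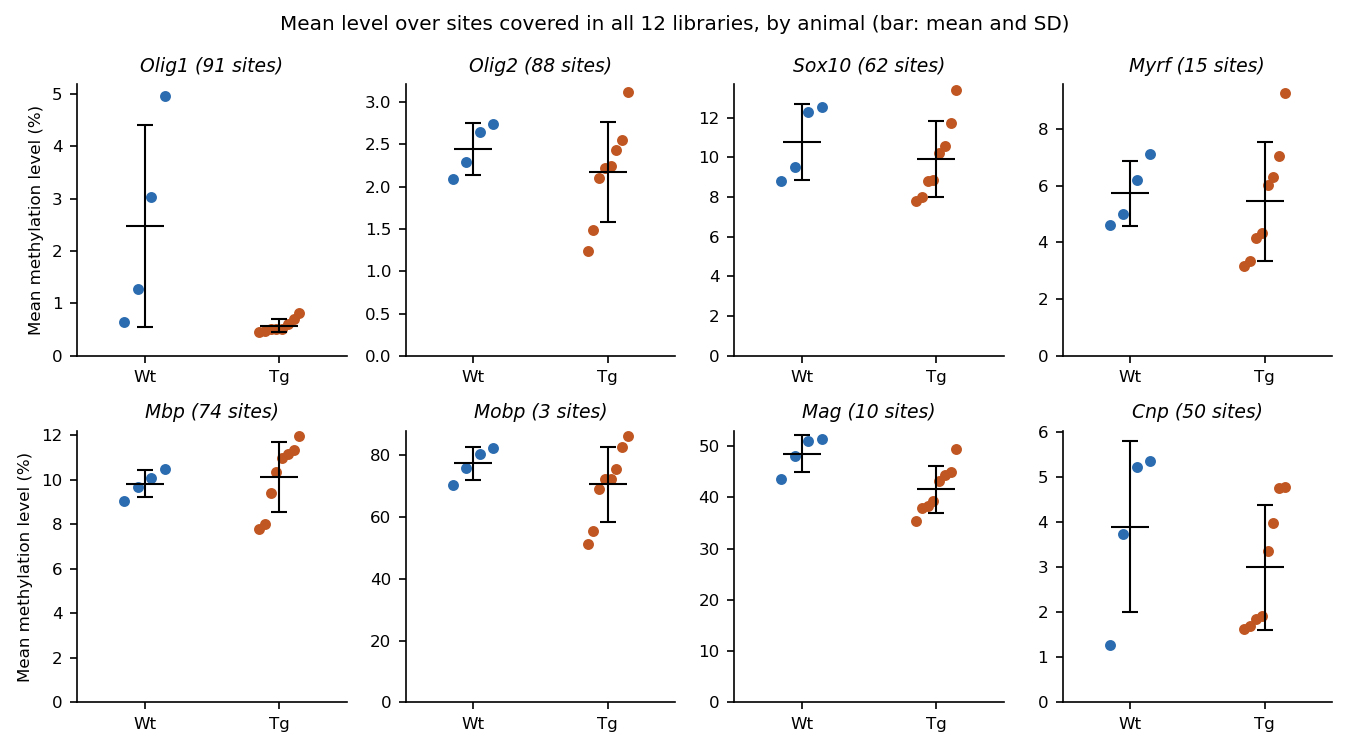
Mean methylation level (%) over the sites of each gene that all 12 libraries covered, with 1 point per animal and bars for the mean and SD of 4 Wt and 8 Tg animals; Mog had no such site. The Wt points of Olig1 spread from 0.652%, within the Tg range of 0.459% to 0.817%, to 4.95%, those of Mag (43.5% to 51.3%) lie toward the top of the Tg range, and the groups overlap in all 8 genes.

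Among genes as a whole, 0 of the 8 members were called by either model on summed reads, beside 0.728% of all 18682 genes by the binomial model and 0% by the overdispersion model. At an unadjusted p under 0.05 in the overdispersion model there was 1 member, Olig1, beside 5.92% of all genes. The median difference over the members was -0.486 points, with 7 of 8 lower in Tg. Over all genes it was 0.0688 points, with 8171 of 18682 lower in Tg. Of 25 other genes of the lineage, 20 could be tested and none was called, with a median difference of -0.0982 points and 11 of 20 lower in Tg. The smallest overdispersion p-values among them were 0.0827 for Fa2h, which makes hydroxylated myelin lipids, 0.114 for Ugt8a, which makes galactosylceramide, 0.183 for Tcf7l2 and 0.193 for Lpar1. Fa2h differed by -0.378 points and Ugt8a by 0.307 points.

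Lists for other brain cells were measured in the same way, and no difference between lists was tested. The median difference was 0.280 points over 7 astrocyte genes, 1.56 points over 4 microglia genes and -0.103 points over 10 inhibitory neuron genes (higher in Tg in 4, 3 and 5 genes), none of which was called or had an unadjusted overdispersion p under 0.05. At gene starts, 14 of 16 other oligodendrocyte genes, 5 of 7 astrocyte genes, 1 of 2 microglia genes and 6 of 8 inhibitory neuron genes with at least 3 sites lay under 5%.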

How the data were processed

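RRBS was done on brain DNA of 12 mice (4 Wt, 8 Tg). Per the methods of the study, a service laboratory made paired-end libraries, reads were aligned to mm10 with Bismark, and the authors used methylKit with adjustment for sex; versions are not given in the sources used here. The deposited values are counts per cytosine of a CpG and strand (coverage, methylated and unmethylated reads), with at least 10 reads per listed site, so thinner sites were not analysed here. Libraries listed 1380585 to 2652395 sites.

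Sites were joined over libraries, leaving out 11 positions listed more than once. Logistic regressions on genotype and labelled sex were fitted to all sites, to reads summed per gene (at least 3 sites) and to clusters of neighbouring sites (gap up to 200 bp, at least 3 sites), with a likelihood-ratio test (binomial model) or an F test with a Pearson dispersion of at least 1 (overdispersion model), adjusted by Benjamini-Hochberg over the whole table. Sites of the wider set needed at least 2 Wt and 3 Tg animals. Mean levels were compared by two-sided exact permutation. The software was Python 3.11.15, numpy 2.4.6, pandas 2.3.3 and scipy 1.17.1, and the models were tested on simulated data. A cluster was given to a gene where it held a member site. The Olig2 upstream cluster of 22 sites begins at position 91223333, more than 2000 bp before the gene start. Its positions, -1980 to -1943, are those of its member sites only. Nothing in the labels says whether the animals shared litters. The permutation p-values rest on differences between these animals, and the binomial p-values only on the counting error of reads. The overdispersion p-values allow for spread between animals only where the dispersion exceeds 1. It was 1 at the sites with the smallest overdispersion p in Olig2, Sox10, Myrf, Mbp and Cnp.

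Members, lists and tests were chosen with earlier results of these data known. By the rule for naming, a site was named where both models called it, where a binomial call had ranges that did not overlap, or where it had the smallest overdispersion p of its gene. Clusters were named where nearest to a start or at the highest level of their gene, and other lineage genes where among the 4 smallest overdispersion p-values. All other sites and clusters named, the Olig1 strands, the printed stretches, the intermediate-level background, the wider clusters and the halved counts were chosen after values were seen. Alternatives varied the read minimum, site set, covariate, strands, thresholds, gap and animals.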

Additional observations from a re-analysis of the deposited data

Results flagged for a closer look

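At the Cnp site 145 bp after the gene start, in UTR sequence, Tg female 3 had a level of 7.41%, while the other Tg animals had 0% to 2.78% and all 4 Wt animals had 0%. Tg female 3 stood apart from the rest of its group by Dixon's criterion. Among 59 groups examined this was the only 1. The nominal rate of the criterion, about 1 group in 20, cannot be applied here, because the Tg median was 0% and values gathered at that floor. The cause was not tested.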

How the results depend on the processing

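The 19 member sites called by the binomial model, beside 1.72% of all sites, became 3 with a difference of at least 25 points (0.0775% of all sites), 0 of 129 with a minimum of 20 reads (0.475%), 12 of 393 with the 7 animals labelled female (2.13%), 3 with reads divided by 2 (0.137%), 57 of 912 with sites in at least 6 libraries (5.84%), and 12 of 332 with strands summed (2.11%). Leaving out 1 animal gave 10 to 37 calls, the fewest when the library labelled Wt male was dropped (1.35% of all sites) and the most when Wt female 1 was (2.25%). The 2 called clusters became 5 of 51 when built from sites in at least 6 libraries (6.96% of all), and 2 to 4 with 1 animal left out (4 without Wt female 2, beside 3.37% of all). The 2 genes with a permutation p under 0.05, Olig1 and Mag, became 0 with a minimum of 20 reads, 1 with reads summed over sites, 1 with strands summed and 0 with the 7 animals labelled female, and 1 to 2 with 1 animal left out (1 when either the library labelled Wt male or Wt female 3 was dropped). The overdispersion model called no member site, gene or cluster under any alternative run. With a minimum of 20 reads the difference in mean level changed sign in Olig2 (0.0928 points), Mbp (-0.235), Mag (1.73) and Cnp (0.0868). With 1 animal left out it ranged from -0.827 to 0.173 points in Myrf. For clusters it then ranged from -0.719 to 0.598 (Olig2, positions -1980 to -1943), -0.479 to 0.0790 (Olig2, at the start), -1.86 to 10.5 (Mbp, 79333 bp in) and -7.21 to 2.88 (Mbp, 96652 bp in). The causes were not tested. Of the results that answer a comparison, 107 of their other values stayed within the limits set. No paired analysis was possible because the labels number no animals in common between Wt and Tg. With a median of 19 to 42 reads per site and library, differences of a few points at single sites were not resolvable.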
